A study of Mus musculus with 19 samples.

Results

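The genes described are 10 genes of the integrated stress response, the program run by the transcription factor ATF4: Atf4, Atf5, Ddit3, Trib3, Chac1, Asns, Psat1, Phgdh, Gdf15 and the liver hormone gene Fgf21. They were taken by name, and 9 of the 10 had a probe set annotated to them alone, 1 probe set each, among 22180 genes so measured. Gdf15 was not analysed here. The study measured RNA from whole mouse liver on 19 Affymetrix arrays in 6 groups: KO on HFD (n = 3), KO on ND (n = 3), TG on HFD (n = 4), TG on ND (n = 3), WT on HFD (n = 3) and WT on ND (n = 3). ND is a normal diet and HFD a high fat diet, each given for 4 weeks to mice of 2 to 3 months. The series is about Kielin/chordin-like protein (KCP), a secreted regulator of BMP and TGF-beta signalling. Its labels give KO and TG with no allele, promoter, strain or sex, and do not mention pooling. Kcp itself averaged a log2 value of 5.66 ± 0.13 (SD, n = 4) in TG and 2.23 ± 0.40 (n = 3) in WT on HFD, and 5.56 ± 0.19 in TG and 2.55 ± 0.23 in WT on ND (n = 3 each). In KO it averaged 2.01 ± 0.14 on HFD and 2.03 ± 0.34 on ND (n = 3 each), and neither difference from WT passed the test in limma (adjusted p = 0.844 and 0.215), so the KO label was not checked by the Kcp probe set, whose place relative to any deleted part is not known. Hepatocyte markers were high on every array (mean log2 level of 8 genes 10.90 to 11.17), and adipocyte, pancreatic acinar and skeletal muscle markers averaged 0.54 to 1.77.

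In the integrated stress response, kinases that sense amino acid shortage, unfolded protein, double-stranded RNA or haem shortage phosphorylate the translation factor eIF2alpha. General protein synthesis then falls while Atf4 mRNA is translated more, so the Atf4 transcript alone does not report ATF4 protein. ATF4 binds composite C/EBP-ATF sites and turns on amino acid synthesis and import, tRNA charging and stress regulators such as Ddit3 and Trib3. In liver Fgf21 is a target both of ATF4 and of PPARA, the nuclear receptor of fasting and fatty acid use, and its product acts on cells that carry the co-receptor beta-klotho.

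The RefSeq promoters of the members (GRCm38.p6, 250 bases before to 50 after each start, 13 windows for the 10 genes) were searched on both strands for the core of the composite site, TGATGNAA, as the site type through which ATF4 acts. It was found in 4 of the 10 members, Asns, Fgf21, Chac1 and Trib3, against 4.51% of 27025 genes with such windows. The sequences are given 5′ to 3′ on the gene's strand with the match in capitals. In Asns it starts 23 bases before the start, in Fgf21 139 and in Chac1 193 bases before it, and in Trib3 14 bases after it. The first 3 windows are the 250 bases before the start, on chr6:7693210-7693459 (minus strand), chr7:45615491-45615740 (minus strand) and chr2:119350992-119351241 (plus strand), and the Trib3 window is chr2:152344028-152344057 (minus strand).
Asns: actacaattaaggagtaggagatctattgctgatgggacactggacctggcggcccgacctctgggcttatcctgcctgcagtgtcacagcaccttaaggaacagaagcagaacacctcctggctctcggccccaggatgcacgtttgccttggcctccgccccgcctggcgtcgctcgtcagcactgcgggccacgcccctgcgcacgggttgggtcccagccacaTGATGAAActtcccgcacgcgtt
Fgf21: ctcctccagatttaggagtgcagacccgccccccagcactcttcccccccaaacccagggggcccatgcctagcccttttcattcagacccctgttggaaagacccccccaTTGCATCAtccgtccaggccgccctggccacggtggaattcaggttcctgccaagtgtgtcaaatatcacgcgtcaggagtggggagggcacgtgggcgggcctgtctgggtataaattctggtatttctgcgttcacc
Chac1: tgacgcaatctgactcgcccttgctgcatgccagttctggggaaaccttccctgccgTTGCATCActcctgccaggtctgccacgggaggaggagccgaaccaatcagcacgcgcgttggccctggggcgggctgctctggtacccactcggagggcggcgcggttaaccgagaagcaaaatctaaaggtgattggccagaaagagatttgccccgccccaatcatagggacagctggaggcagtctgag
Trib3: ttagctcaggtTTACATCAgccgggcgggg
The match in Asns reads TGATGAAA on the gene's strand, and those in the other 3 genes are on the opposite strand. The ER stress response element, CCAAT and CCACG with 9 bases between, was in no member window and in 0.137% of genes. The direct repeat bound by PPAR proteins, AGGTCA and AGGTCA with 1 base between, was in no member window and in 0.0481% of genes. Of the 4 genes with a match, Asns and Fgf21 gave 1 call each, in different comparisons, and Chac1 and Trib3 gave none.

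For most of these genes no difference between the groups passed the test. The values are log2 intensities from RMA, and each difference is a difference of group means in 1 limma fit over all 19 arrays, with p-values adjusted over all 22180 genes by the Benjamini-Hochberg method and a call at an adjusted p under 0.05. Over the 9 comparisons of 2 groups, 3 of 81 member differences were called, or 3.70%, against 1.97% over all genes. The 3 were Fgf21, higher in WT on HFD than in WT on ND, Asns, lower in KO than in WT on ND, and Atf5, lower in KO than in TG on ND. Each of the 3 calls was lost when certain single arrays were left out, as given beside it. Nothing in the labels says that the arrays of a group are separate animals, so the p-values measure the spread between these samples.

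**Figure D1:**
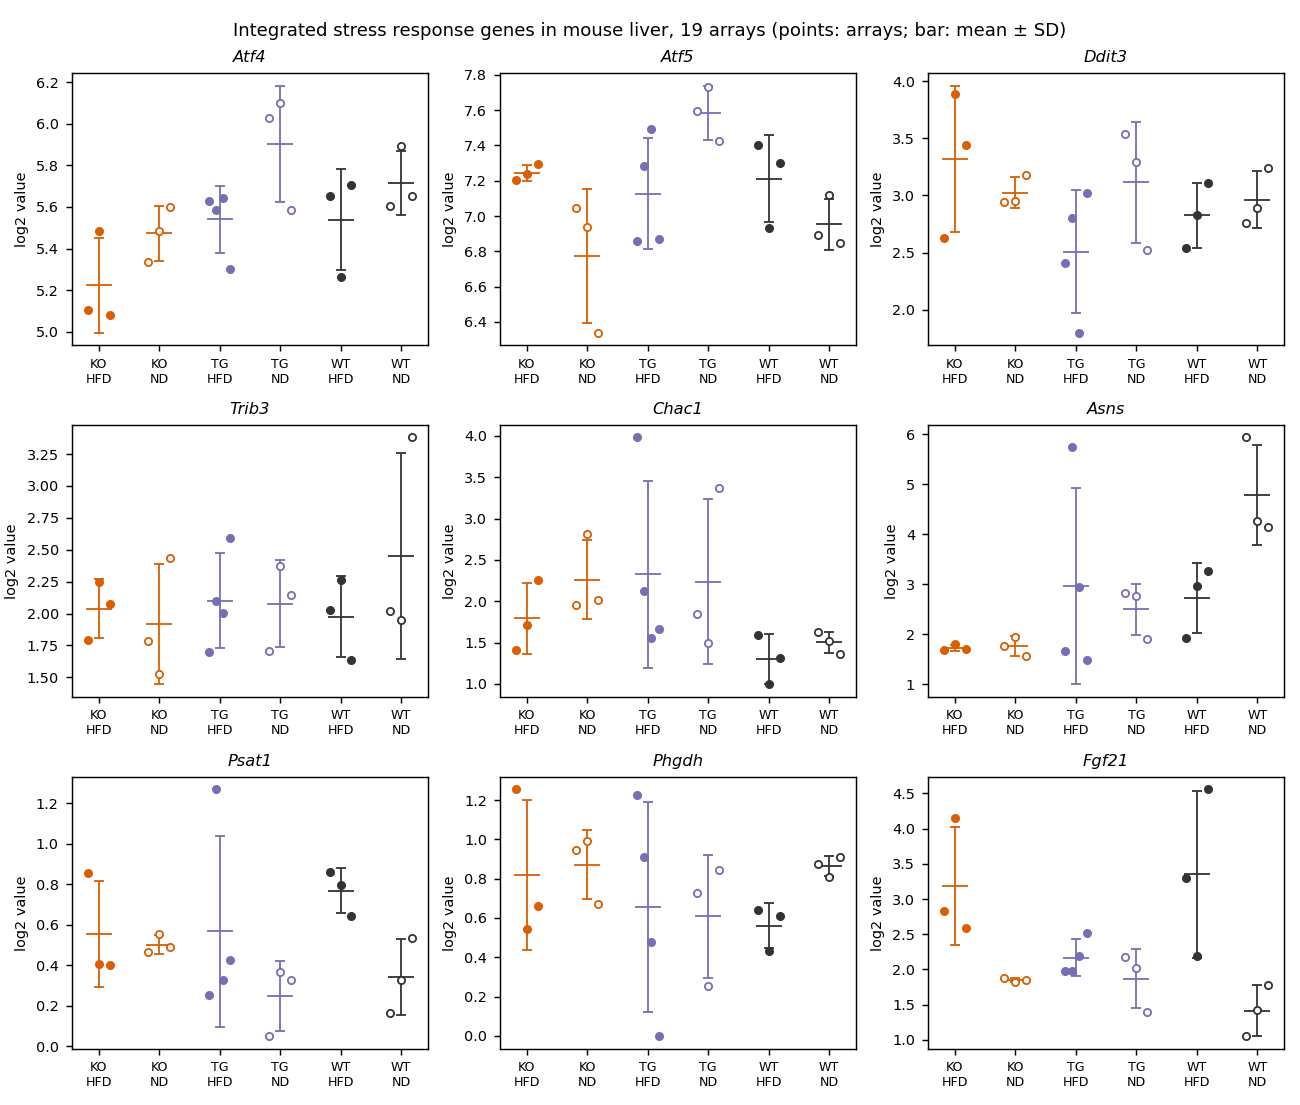
Log2 value of each of the 9 measured members on each of the 19 arrays, by genotype and diet (filled points HFD, open points ND; bars are the mean ± SD). Asns is high on the 3 WT arrays on ND, at 4.14 to 5.93, and Fgf21 reaches 4.56 and 4.15 on single WT and KO arrays on HFD.

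Atf4, the central transcription factor, was the steadiest of the members on a log scale. It ran between 5.08 and 6.10 over all 19 arrays, with a pooled SD within groups of 0.20. Its group means were 5.22 in KO on HFD, 5.47 in KO on ND, 5.54 in TG on HFD, 5.90 in TG on ND, 5.54 in WT on HFD and 5.72 in WT on ND. The 3 diet differences were all below 0, at -0.25 in KO, -0.36 in TG and -0.18 in WT, and none passed the test (adjusted p = 0.637, 0.408 and 0.778). Between genotypes the widest difference was KO minus TG on ND at -0.43 (95% interval -0.78 to -0.09, adjusted p = 0.188).

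Atf5, a related factor that also feeds the mitochondrial unfolded protein response, gave 1 call. On ND its log2 values were 7.05, 6.94 and 6.34 in the 3 KO samples and 7.60, 7.73 and 7.43 in the 3 TG samples, and those of WT were 6.89, 7.12 and 6.85. Every TG value lay above every KO and every WT value, while KO and WT overlapped. Atf5 fell in KO relative to TG by 0.81 ± 0.19 (SE) on the log2 scale (95% interval -1.21 to -0.41, adjusted p = 0.0188 in limma), where 4.20% of all genes were called. The call was lost without KO ND replicate 3 (-0.59, adjusted p = 0.111), without TG ND replicate 1 (-0.81, adjusted p = 0.0639) and without TG ND replicate 2 (-0.74, adjusted p = 0.0893). Relative to WT on ND, Atf5 was 0.63 higher in TG (adjusted p = 0.152) and 0.18 lower in KO (adjusted p = 0.797), so neither genotype differed from WT by the test. On HFD the same genotypes met: the means were 7.24 in KO, 7.13 in TG and 7.21 in WT.

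In KO Atf5 was at 7.20, 7.24 and 7.29 on HFD, against 7.05, 6.94 and 6.34 on ND, with no overlap and a difference of 0.47 (adjusted p = 0.343). In TG the difference ran the other way, at -0.46 (adjusted p = 0.35), with means of 7.13 on HFD and 7.59 on ND. Of the 9 members, 2 had no overlap between diets in KO (Atf5 and Fgf21), against 17.1% of all genes, and none had in TG, against 9.49%. No member was called for diet in KO or in TG, where 0.803% and 0.906% of all genes were called.

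Ddit3, which encodes the pro-apoptotic factor CHOP, and Trib3, a pseudokinase that restrains ATF4 and AKT signalling, gave no call in any comparison. Ddit3 ran between 1.80 and 3.89 and was widest for KO minus TG on HFD, with means of 3.32 ± 0.64 in KO and 2.51 ± 0.54 in TG (SD, n = 3 and 4), a difference of 0.81 (adjusted p = 0.207). Trib3 had group means between 1.92 and 2.45, and its highest value of 3.38 came from 1 WT array on ND, whose 2 group mates were at 2.02 and 1.95. Chac1, which degrades glutathione, was dim (mean 1.92) and rested on single arrays. It reached 3.98 on 1 TG array on HFD and 3.37 on 1 TG array on ND, and on the other 17 arrays it stayed below both. TG minus WT on HFD was 1.03 for Chac1 (95% interval 0.02 to 2.04, adjusted p = 0.318), with overlapping arrays.

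Psat1 and Phgdh, enzymes of serine synthesis from glucose, were below a log2 value of 2 on all 19 arrays. Of all genes, 56.5% had a mean under 2, so both lie in the dim range of this array type, and the lack of a difference in them says little about their transcripts. Psat1 was at 0.86, 0.80 and 0.65 in WT on HFD and at 0.16, 0.33 and 0.53 in WT on ND, a difference of 0.43 without overlap (adjusted p = 0.459). Phgdh was at 0.64, 0.43 and 0.61 in WT on HFD and at 0.87, 0.81 and 0.91 in WT on ND, a difference of -0.31 without overlap (adjusted p = 0.727). The members with no overlap between the diets in WT were these 2, Asns and Fgf21, 4 of 9 against 15.1% of all genes.

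Asns, which makes asparagine and is among the best known ATF4 targets, varied most of all members, over 4.45 log2 units. On ND its log2 values were 1.77, 1.95 and 1.56 in KO, 2.82, 2.76 and 1.91 in TG, and 5.93, 4.26 and 4.14 in WT. Every WT value on ND lay above every KO and TG value on ND. Asns fell in KO relative to WT by 3.02 ± 0.76 (SE) on the log2 scale (95% interval -4.61 to -1.42, adjusted p = 0.0377 in limma), where 2.98% of all genes were called. TG minus WT on ND was -2.28 (95% interval -3.88 to -0.68, adjusted p = 0.222), where 1.30% of all genes and no member were called. Leaving out any 1 of the 6 KO and WT arrays on ND ended the call. The adjusted p was 0.168 without WT ND replicate 1, 0.0692 without WT ND replicate 2 and 0.0577 without WT ND replicate 3. Without KO ND replicates 1, 2 and 3 in turn it was 0.0921, 0.096 and 0.112, and the difference stayed between -3.34 and -2.44 in these 6 fits.

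On HFD the Asns values were 1.68, 1.80 and 1.71 in KO, 1.67, 5.75, 2.95 and 1.48 in TG, and 1.93, 2.97 and 3.26 in WT. A single TG array held the second highest value of the series, and its 3 group mates overlapped the values of both KO and WT. All 6 KO values of both diets lay between 1.56 and 1.95. The Asns probe set was under 2 on 10 of the 19 arrays, every KO array among them. Its KO values thus lie in the dim range, where their steadiness says little and differences from KO may be understated. KO minus WT on HFD was -0.99 without overlap (adjusted p = 0.801), the only such member, against 13.2% of all genes, and 0.338% of all genes and no member were called. HFD minus ND was -2.06 in WT (95% interval -3.66 to -0.46, adjusted p = 0.275), without overlap. It was -0.03 in KO (95% interval -1.63 to 1.56) and 0.47 in TG (95% interval -1.03 to 1.96), and without TG HFD replicate 2 the TG value was -0.46. The diet difference in KO minus that in WT was 2.02 (adjusted p = 0.533), and in TG minus that in WT 2.52 (adjusted p = 0.555), so the diet differences of Asns were not shown to differ between genotypes.

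In order of group means, Asns stood at 4.78 ± 1.00 in WT on ND, 2.96 ± 1.97 in TG on HFD, 2.72 ± 0.70 in WT on HFD, 2.50 ± 0.51 in TG on ND, 1.76 ± 0.19 in KO on ND and 1.73 ± 0.06 in KO on HFD. Neighbours in this order overlapped in every case, and TG on ND against KO on ND, 0.74 apart, was the only step larger than the SDs of both groups.

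**Figure D2:**
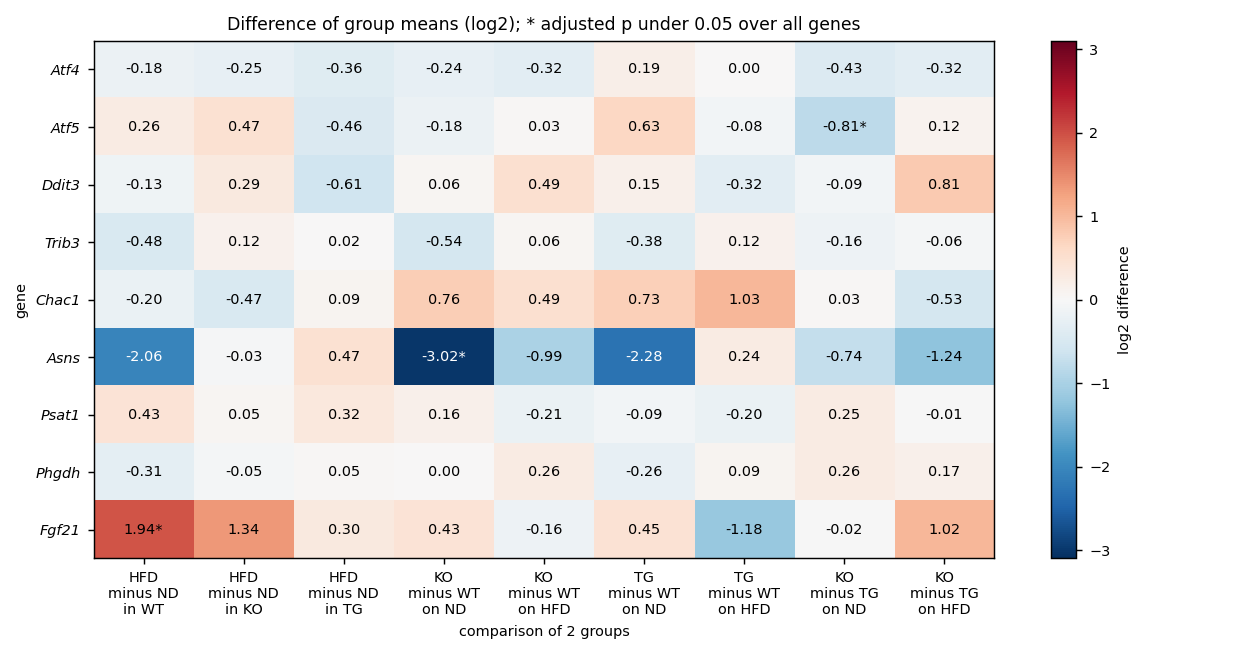
Differences of group means (log2) of the 9 measured members in the 9 comparisons of 2 groups, red where the first named group is higher and blue where it is lower. The 3 differences marked with a star passed the adjusted p of 0.05: 1.94 for Fgf21, -3.02 for Asns and -0.81 for Atf5.

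Fgf21 rose on HFD in WT, and with Psat1 it was the member whose mean was higher on HFD in all 3 genotypes. In WT its log2 values were 3.30, 2.20 and 4.56 on HFD, against 1.05, 1.42 and 1.77 on ND. All 3 HFD values lay above all 3 ND values, and the HFD values spread over more than the gap between the groups. HFD minus ND in WT was 1.94 ± 0.44 (SE) on the log2 scale, or 3.83-fold (95% interval 1.01 to 2.87 in log2, adjusted p = 0.0351 in limma), and 1.32% of all genes were called there. The call was kept without WT HFD replicate 2, the lowest HFD array, at 2.52 and an adjusted p of 0.00275. It was lost without WT HFD replicate 1 (1.96, adjusted p = 0.114) and without WT HFD replicate 3 (1.33, adjusted p = 0.156). It was also lost without WT ND replicates 1 (1.76, adjusted p = 0.141), 2 (1.94, adjusted p = 0.11) and 3 (2.12, adjusted p = 0.0596), and with the spread taken from the 6 WT arrays alone (adjusted p = 0.185).

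In KO Fgf21 was at 2.83, 4.15 and 2.59 on HFD, against 1.88, 1.82 and 1.84 on ND. The diets did not overlap, and the difference of 1.34 did not pass the test (95% interval 0.41 to 2.27, adjusted p = 0.197). Without KO HFD replicate 2, the highest of them, it was 0.86. In TG the values were 1.98, 1.97, 2.20 and 2.52 on HFD, against 2.18, 2.03 and 1.39 on ND. These overlapped, and the difference was 0.30 (95% interval -0.57 to 1.17, adjusted p = 0.878). The interval of the TG difference excludes a rise of the mean size seen in WT, yet the test of the difference itself did not pass: diet in TG minus diet in WT was -1.64 ± 0.60 (SE, 95% interval -2.91 to -0.36, unadjusted p = 0.0147, adjusted p = 0.487). For KO the same test gave -0.60 (95% interval -1.91 to 0.72, adjusted p = 0.798). No member was called in either test of diet by genotype, where 0.825% of all genes were called for KO and 0.221% for TG.

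Between genotypes on HFD, TG had less Fgf21 than WT by 1.18 on the log2 scale (95% interval -2.05 to -0.31, adjusted p = 0.142). The groups overlapped through WT HFD replicate 2, at 2.20, which lay among the TG values. Without that array the difference was -1.76 and passed (adjusted p = 0.0164), and without WT HFD replicate 3 it was -0.58 (adjusted p = 0.537). No member was called in this comparison with all arrays, against 3.57% of all genes, and no member was free of overlap, against 12.3%. KO minus TG on HFD was 1.02 for Fgf21 (95% interval 0.15 to 1.89, adjusted p = 0.264) without overlap, since the lowest KO array was at 2.59 and the highest TG array at 2.52. Without KO HFD replicate 2 it was 0.54. It was 1 of 9 members without overlap there, against 12.1% of all genes, and 2.35% of all genes and no member were called. KO and WT on HFD overlapped fully, with a difference of -0.16 (95% interval -1.09 to 0.77).

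On ND no Fgf21 difference between genotypes passed the test. KO minus WT was 0.43 (adjusted p = 0.782), with all 3 KO values above all 3 WT values, and TG minus WT was 0.45 (adjusted p = 0.847), with overlap. KO minus TG on ND was -0.02 (95% interval -0.95 to 0.91). Members without overlap numbered 4 of 9 for KO minus WT on ND (Atf4, Chac1, Asns and Fgf21), against 18.1% of all genes. They numbered 2 of 9 for TG minus WT on ND (Atf5 and Asns), against 15.8%, and 2 of 9 for KO minus TG on ND (Atf5 and Psat1), against 21.1%.

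In order of group means, Fgf21 stood at 3.35 ± 1.18 in WT on HFD, 3.19 ± 0.84 in KO on HFD, 2.17 ± 0.26 in TG on HFD, 1.87 ± 0.42 in TG on ND, 1.85 ± 0.03 in KO on ND and 1.41 ± 0.36 in WT on ND. Neighbours differed by more than the SDs of both groups at 2 steps, KO on HFD against TG on HFD and KO on ND against WT on ND. The Fgf21 probe set was under 2 on 9 of the 19 arrays, so its low groups lie in the dim range of the array, where differences are compressed and a fold change may be understated. In bulk liver RNA, fewer cells that make a transcript and less of it per cell cannot be told apart.

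A second pattern ran through the same groups, the state of the circadian clock. A score per array, the mean of 11 evening clock genes such as Dbp, Per3 and Usp2 minus the mean of 5 morning genes such as Arntl and Clock, averaged 1.79 in KO on HFD, 1.36 in KO on ND, 1.43 in TG on HFD, -1.80 in TG on ND, 1.57 in WT on HFD and -1.12 in WT on ND. The WT and TG arrays on ND lay between -2.22 and -0.36, and the other 13 arrays between 1.15 and 1.95, with no overlap. Each of the 3 member calls falls in a comparison across that gap. With the score as a covariate the adjusted p was 0.921 for Fgf21 in WT (2.52), 0.917 for Asns (-2.28) and 0.992 for Atf5 (-0.38), and of all genes that fit called 5, 12 and 2 in these comparisons. The labels give no time of day, and the score is nearly fixed by the group, so its part in the 3 calls cannot be told apart from that of diet and genotype. Comparisons on HFD lie within the narrow range of the score, and no member was called there.

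**Figure D3:**
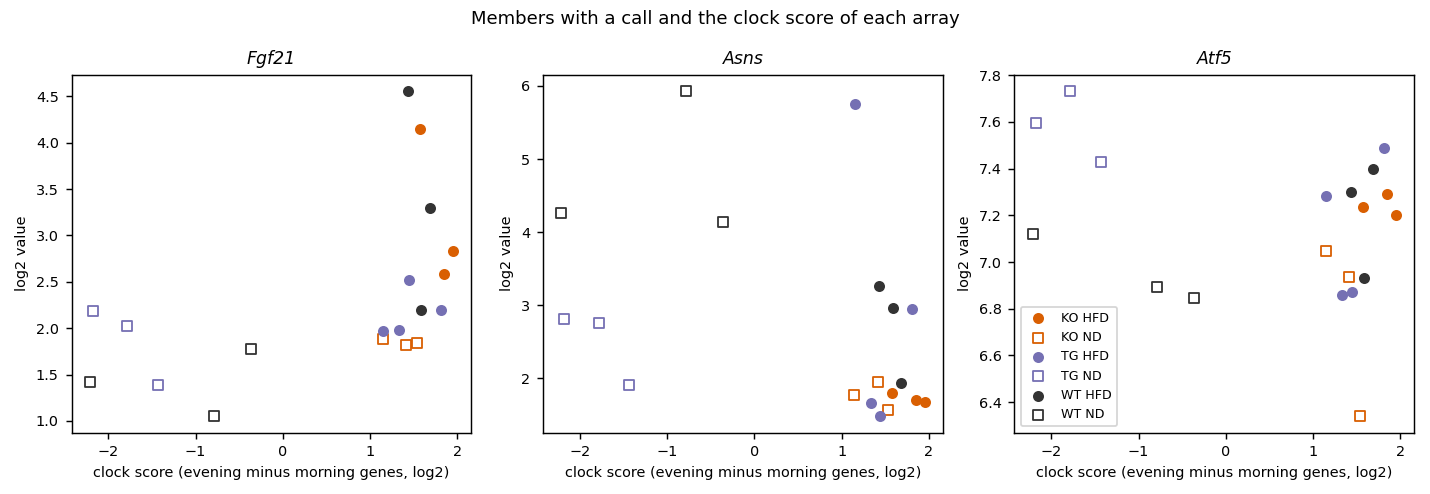
Log2 values of Fgf21, Asns and Atf5 on each of the 19 arrays against the clock score of the array (filled circles HFD, open squares ND; orange KO, purple TG, dark grey WT). The WT and TG arrays on ND lie below a score of -0.36 or at it, and all others above 1.1.

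The members' own transcripts were set beside 61 other measured genes of the pathway, grouped by role. Of 10 genes for the eIF2alpha kinases, phosphatases and translation factors, among them the phosphatase subunit gene Ppp1r15a, none was called in any of the 9 comparisons, and at an unadjusted p under 0.05 there were between 0 and 2 per comparison, against 8.32% to 15.2% of all genes. Ppp1r15a differed by at most 0.27 in size, for KO minus TG on HFD (-0.27, adjusted p = 0.457). For diet in WT, 2 of the 61 were called, both higher: Vldlr, the very low density lipoprotein receptor, by 2.01 (adjusted p = 0.00134), and Gpt2, a mitochondrial alanine aminotransferase, by 0.80 (adjusted p = 0.015). Of all genes, 1.32% were called there, and the median over the 61 was 0.07, against 0.00 over all genes. Gpt2 lost its call without WT ND replicate 1, WT HFD replicate 2 or WT HFD replicate 3 (adjusted p up to 0.0827). For diet in KO only Vldlr was called (1.39, adjusted p = 0.0392), against 0.803% of all genes. Vldlr lost this call in 5 of 6 fits without 1 array (adjusted p up to 0.206, without KO ND replicate 2). For diet in TG, 2 were called, against 0.906% of all genes, and both were lower. These were Cbs, of the transsulfuration pathway, by -0.84 (adjusted p = 0.000739), and Tars, the threonyl-tRNA synthetase gene, by -0.83 (adjusted p = 0.0042). Both kept their calls without any 1 array. Diet in WT and diet in TG lie across the clock gap. Cbs and Tars in TG, and Vldlr and Gpt2 in WT, all lost their diet calls with the clock score as a covariate. Tars in TG and Gpt2 in WT also lost theirs with the spread taken from the compared arrays alone.

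On ND, KO differed from WT in 8 of the 61, against 2.98% of all genes, with 4 higher, 4 lower and a median of 0.01. The higher were Cebpb, a partner of ATF4 in composite sites, by 1.50, Vldlr by 1.40, the glutamine carrier Slc38a2 by 1.22 and Gpt2 by 1.11. The lower were Cbs by -0.89, Cth, the next enzyme of transsulfuration, by -0.86, Tars by -0.79 and the amino acid carrier Slc38a7 by -0.67 (adjusted p between 0.000363 for Cbs and 0.0462 for Slc38a7). Called pathway genes moved both ways in the comparison in which Asns fell, and the cause was not tested. Cbs, Cth, Gpt2 and Tars kept their calls without any 1 array, and the other 4 lost theirs in between 2 and 5 of 6 such fits, as Slc38a7 did without KO ND replicate 2 (adjusted p = 0.214). KO minus TG on ND called 5 of the 61, against 4.20% of all genes, with a median of -0.10. Cebpb (1.25) and Gpt2 (0.65) were higher, and Cbs (-0.86), Cth (-0.65) and Tars (-0.62) were lower. Cebpb, Gpt2 and Tars lost these calls without single arrays, with adjusted p up to 0.117 for Cebpb and 0.0978 for Tars, both without TG ND replicate 1, and 0.0989 for Gpt2, without KO ND replicate 2. All of these calls on ND lie across the clock gap, and all were lost with the clock score as a covariate.

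TG minus WT on ND called none of the 61, with 15 at an unadjusted p under 0.05, against 9.97% of all genes. TG minus WT on HFD called 7, against 3.57% of all genes, with a median of -0.05 and a like clock score in both groups. Vldlr was lower by -1.68 (adjusted p = 0.00219), the arginine carrier Slc7a1 by -0.80 (adjusted p = 0.00428), Cbs by -0.57 (adjusted p = 0.00768), Cebpa by -0.57 (adjusted p = 0.0124), Tars by -0.54 (adjusted p = 0.0318) and Mars1, the methionyl-tRNA synthetase gene, by -0.39 (adjusted p = 0.0431). Cebpg, a further partner of ATF4, was higher by 0.52 (adjusted p = 0.0484). Vldlr, Slc7a1 and Cbs kept their calls without any 1 array, though Slc7a1 was at 0.47 to 0.91 on the TG arrays on HFD, in the dim range. With the spread taken from the compared arrays alone, only Vldlr and Slc7a1 of the 7 kept their calls (adjusted p = 0.117 for Cbs). Cebpa lost its call without WT HFD replicate 2 (adjusted p = 0.0589), and Tars, Mars1 and Cebpg lost theirs in 5, 7 and 6 of 7 fits (adjusted p up to 0.143 for Tars without WT HFD replicate 1, and 0.201 for Mars1 and 0.189 for Cebpg without WT HFD replicate 2). KO minus WT on HFD called none of the 61, with 6 at an unadjusted p under 0.05, against 8.32% of all genes. KO minus TG on HFD called 2, against 2.35% of all genes: Vldlr (2.46, adjusted p = 0.000117) and Shmt1 (0.77, adjusted p = 0.0162), a folate enzyme, both higher. Shmt1 lost its call in 4 of 7 fits without 1 array (adjusted p up to 0.107, without KO HFD replicate 2).

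Vldlr, like Fgf21, had its lowest HFD mean in TG. Its log2 values on HFD were 3.94, 4.59 and 4.37 in KO, 1.93, 1.02, 2.27 and 2.16 in TG, and 3.44, 3.84 and 3.31 in WT. All TG values lay below all KO and WT values. On ND they were 3.23, 2.30 and 3.22 in KO, 2.51, 2.41 and 1.99 in TG, and 1.71, 1.15 and 1.69 in WT, and here TG lay above WT. For Vldlr the diet difference in TG minus that in WT was -2.47 (adjusted p = 0.0152), which was lost without WT ND replicate 2 or TG ND replicate 1 (adjusted p up to 0.0567, without WT ND replicate 2).

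Among 21 measured regulators and targets of PPARA, Acot3, a peroxisomal acyl-CoA thioesterase gene, and Cpt1a, the gate of fatty acid import into mitochondria, were higher on HFD in WT (3.05 and 0.63, adjusted p = 0.00354 and 0.0351). They were the 2 called, against 1.32% of all genes. This comparison lies across the clock gap, and both calls were lost with the clock score as a covariate. Apart from fits without 1 array, the lowest alternative values were 1.71 for Acot3 and 0.06 for Cpt1a. Acot3 was at 5.50, 3.43 and 6.04 in WT on HFD, against 2.18, 1.30 and 2.34 in WT on ND. The array lowest for Fgf21 in WT on HFD, replicate 2, was lowest for Acot3 also, but highest for Vldlr. In KO on ND Acot3 was at 5.42, 4.62 and 5.03, and Fgf21 was at 1.82 to 1.88. For Acot3, KO minus WT on ND (3.08, adjusted p = 0.00194) lies across the clock gap. That call was lost with the clock score as a covariate. For diet in KO, where the Fgf21 mean was higher on HFD, 2 of the 21 were called, against 0.803% of all genes, and both were lower on HFD. Acot1, a further acyl-CoA thioesterase gene, was at 2.86, 3.38 and 3.98 in KO on HFD and at 5.54, 5.51 and 5.65 in KO on ND (-2.16, adjusted p = 0.026). Angptl4, whose product inhibits lipoprotein lipase, was at 5.46, 5.46 and 5.98 in KO on HFD and at 6.87, 7.21 and 7.34 in KO on ND (-1.51, adjusted p = 0.0498). Both were without overlap, Acot1 lost its call in 5 of 6 fits without 1 array (adjusted p up to 0.141, without KO HFD replicate 1), and Angptl4 in all 6 (adjusted p up to 0.187, without KO ND replicate 2). For diet in TG, Cpt1a was the 1 called, against 0.906% of all genes. It was higher by 0.63 (adjusted p = 0.0308), and it lost this in 5 of 7 such fits (adjusted p up to 0.198, without TG ND replicate 1). TG minus WT on HFD called 3 of the 21, against 3.57% of all genes, all lower: Acot3 by -2.56, Vnn1 by -4.02 and Cyp4a14 by -5.19 (adjusted p = 0.00528, 0.00269 and 0.0055). Acot3 held its diet call in WT and its TG call on HFD without any 1 array. Vnn1 and Cyp4a14 held their TG calls on HFD likewise, while Cpt1a lost its call in WT in 5 of 6 fits (adjusted p up to 0.164, without WT ND replicate 2). With the spread taken from the compared arrays alone, Acot3 lost both calls (adjusted p = 0.104 for TG minus WT on HFD). Vnn1 (adjusted p = 0.0816) and Cpt1a in WT also lost theirs in such fits, and Cyp4a14 kept its call. Ppara itself was called only for KO minus TG on ND (0.84, adjusted p = 0.0163), lost without KO ND replicate 2, KO ND replicate 3 or TG ND replicate 3 (adjusted p up to 0.0829). The part of PPARA in the Fgf21 values was not tested.

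**Figure D4:**
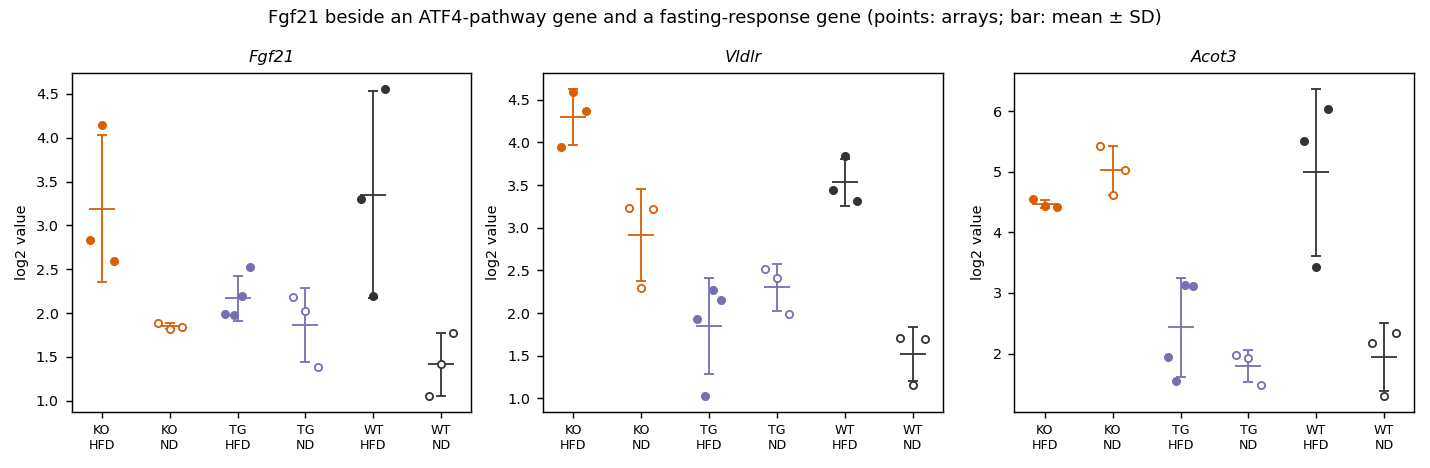
Log2 values of Fgf21, Vldlr and Acot3 on each array, by genotype and diet (filled points HFD, open points ND; bars are the mean ± SD). In all 3 panels the TG mean on HFD, at 2.17, 1.85 and 2.43, lies below the KO and WT means on HFD. The KO mean on ND is 5.02 for Acot3 and 1.85 for Fgf21.

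Of 11 receptor and family genes of FGF21 and GDF15, none was called for diet in WT, where Fgf21 and 1.32% of all genes were. Klb, the beta-klotho gene, had means of 7.20 in KO, 6.70 in TG and 7.27 in WT on HFD, and 6.56 in KO, 6.92 in TG and 7.14 in WT on ND. No Klb difference was called, the nearest being TG minus WT on HFD at -0.57 (adjusted p = 0.0891). Fgfr1, a receptor that pairs with beta-klotho, was higher in TG than in WT on HFD by 1.68 (adjusted p = 0.00541), and by 1.39 on ND (adjusted p = 0.0516). The HFD call was lost with the spread taken from the compared arrays alone (adjusted p = 0.0561). Fgfr4, the main hepatocyte receptor of the family, was lower in KO than in WT on ND by -0.55 (adjusted p = 0.0221), a call lost without any 1 of the 6 arrays (adjusted p between 0.052 and 0.0848, the highest without KO ND replicate 2). Markers of Kupffer cells and macrophages moved with the TG label: 12 of 12 were called higher in TG than in WT on each diet. Of all genes, 3.57% were called for TG minus WT on HFD and 1.30% on ND. The mean level of the 12 was 5.80 to 6.30 in TG and 4.32 to 4.74 in WT on HFD, and 5.88 to 6.42 in TG and 4.40 to 4.54 in WT on ND. In KO it was 4.37 to 4.97 on ND and 4.74 to 5.31 on HFD. KO minus TG on ND called 10 of the 12, all lower, against 4.20% of all genes, with a median difference of -1.22. Marco, a scavenger receptor of these cells, had the lowest difference there, at -4.97. For KO minus WT on ND 11 of the 12 lay above 0, with a median of 0.30. Marco was the 1 below 0 and the 1 called (-1.76, adjusted p = 0.017 in limma), against 2.98% of all genes. None of 8 hepatocyte markers was called in any of the 9 comparisons, against 0.338% to 4.20% of all genes. The part of these cells in the TG values of Atf5, Fgfr1 and Fgf21 was not tested.

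Of the wider stress genes, Atf3, Nupr1, Sesn2 and Hspa5, the gene of the chaperone BiP, gave no call in any comparison. Atf3 was nearest for diet in WT, at 0.86 (adjusted p = 0.228). Of 21 genes of the ATF6 and XBP1 branch, Ern1 was lower on HFD in WT (-0.48, adjusted p = 0.0422), and Herpud1, of ER-associated degradation, was higher in KO than in WT on ND (1.32, adjusted p = 0.000653) and than in TG on ND (0.70, adjusted p = 0.049). Derl3 was higher in TG than in WT on ND (1.10, adjusted p = 0.0169) and Ero1b on HFD (0.71, adjusted p = 0.0184). Each of these comparisons called 1 of the 21. Of all genes, 1.32% were called for diet in WT, 2.98% for KO minus WT on ND and 4.20% for KO minus TG on ND. For TG minus WT the share was 1.30% on ND and 3.57% on HFD. Herpud1 kept its call against WT without any 1 array, and the other 4 calls were lost without some, with adjusted p up to 0.154 for Ern1 (without WT HFD replicate 3), 0.25 for Herpud1 against TG (without TG ND replicate 1), 0.1 for Derl3 (without TG ND replicate 3) and 0.0758 for Ero1b (without WT HFD replicate 3). Of 8 mitochondrial stress genes, Hspe1, a mitochondrial co-chaperonin, was lower in TG than in WT on HFD (-2.57, adjusted p = 0.00106) and on ND (-2.17, adjusted p = 0.0126, lost without WT ND replicate 2, TG ND replicate 2 or TG ND replicate 3, adjusted p up to 0.0782). It was higher in KO than in TG on ND (2.07, adjusted p = 0.00769), a call kept without any 1 array and lost with the clock score as a covariate. For KO minus WT on HFD Hspe1 was also lower, at -1.79, the lowest difference among the 8 genes. None of the 8 was called there, against 0.338% of all genes. Where Hspe1 was called it was the only 1 of the 8, against the shares of all genes given above.

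Within groups no pair of members was correlated beyond the test. Over the 19 arrays, after removal of group means, 36 pairs were compared with 100000 permutations within groups, and 2 pairs had an unadjusted p under 0.05. The pair Trib3 and Phgdh had Pearson r = -0.50 (permutation p = 0.00736, adjusted p = 0.265) and Spearman rho = -0.52 (permutation p = 0.0165), with r = -0.65 without the 2 arrays farthest from the median. The pair Atf4 and Fgf21 had r = 0.62 (permutation p = 0.0346, adjusted p = 0.623) and rho = 0.58 (permutation p = 0.0514), with r = 0.47 without 2 arrays. As a description over the same 19 arrays and 9082 genes, the profiles most like Fgf21 by Pearson r were those of Tmem184b (0.85), Gpam (0.84), Adamts1 (0.84), Pcna (0.82) and Fads1 (0.80). Those most like Asns were Insc (0.74), Fat1 (0.74), Snrpe (0.73), Sdc1 (0.72) and Nf1 (0.72), and those most like Trib3 were Zfp128 (0.75), Pbld1 (0.70), Rrp15 (0.67), Sbf1 (0.66) and Chd6 (0.66). These r values include the differences between groups in diet, genotype and clock state, and no member was among the listed genes. After removal of group means, r with Fgf21 was 0.74 for Tmem184b, 0.66 for Gpam, 0.80 for Adamts1, 0.57 for Pcna and 0.49 for Fads1.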

How the data were processed

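Liver RNA was hybridised to 19 Affymetrix arrays of 1 colour, and the deposited table holds 1 log2 value per probe set and array. RMA, affy and limma are named in the submitters' processing notes, so these log2 values, made by the authors, are taken as background-corrected, quantile-normalized and summarised by RMA. Their log base rests on the range of -0.93 to 12.51, and raw intensities were not used here. Of 41345 probe sets, 23521 had 1 gene symbol, 1814 several and 16010 none. The probe set with the highest mean stood for a gene. Array medians ran from 0.983 to 1.075, and the number of arrays limits the precision. limma 3.58.1 in R 4.3.3 fitted group means (lmFit, eBayes), with contrasts for diet, genotype and diet by genotype, checked on simulated data. Correlations used Python 3.11.15 and scipy 1.17.1. Members and lists were chosen with earlier results of these data known. All members are named. From each other list, up to 4 called genes of lowest p per comparison were eligible, with Klb, Fgfr1, Fgfr4, Atf3, Nupr1, Sesn2, Ppp1r15a, Hspa5, Ppara and Kcp fixed. Alternatives were the arrays in the fit, dim genes, probe sets, centring, variance model, clock score and single arrays left out. Those for genes outside the members were added after seeing the data.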

Additional observations from a re-analysis of the deposited data

Results flagged for a closer look

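Among 47 genes tested on the 4 TG arrays on HFD, 3 had 1 array apart from the others, where the gap to the nearest array is more than 0.829 of the group's range. These were Psat1 (0.829, a high array at 1.27 in the dim range), Klb (0.833, a high array at 7.15) and Fgfr4 (0.839, a high array at 5.31). Chance gives about 1 such gene in 20. Of the 47 genes checked, the members among them, the effect of diet differed from that in WT for 3 in limma, where 0.825% of all genes were called for KO and 0.221% for TG: Vldlr in TG (-2.47, adjusted p = 0.0152), Gpt2 in KO (-1.17, adjusted p = 0.0194) and Acot3 in KO (-3.61, adjusted p = 0.0235). Gpt2 lost this without WT ND replicate 1, KO ND replicate 2, WT HFD replicate 3 or KO HFD replicate 3 (adjusted p up to 0.0578), and Acot3 in 8 of 12 fits without 1 array (adjusted p up to 0.0751, without WT ND replicate 2). No member was among the 3. Outside the 47, the diet effect in KO differed from that in WT for 5 of 11 evening clock genes and 1 of 12 Kupffer cell and macrophage markers.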

How the results depend on the processing

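Of 1398 alternative values of the 99 member differences, 1375 kept their side of the threshold, 22 lost a call and 1 gained one. The sign changed in 91 with no call in either fit, in 44 of the 99 differences, the largest of them 0.74 in size. No called sign changed. With the compared arrays alone, the members called numbered 0 for diet in WT and 0 for KO minus TG on ND. The other pathway genes called were then 1, 0 and 1 for diet in WT, KO and TG, 2 for TG minus WT on HFD and 1 for KO minus TG on HFD. With all probe sets tested, members called were 0 for diet in WT and for KO minus WT on ND, and other pathway genes 0 for diet in KO, 4 for TG minus WT on HFD and 3 for KO minus TG on ND. With dim genes left out, other pathway genes were 2 for diet in KO, 2 for TG minus WT on ND and 4 for KO minus TG on HFD. Centring gave 2 for TG minus WT on ND. The trended robust variance gave 0 members for KO minus WT on ND, and 1 and 4 other genes for TG minus WT on ND and KO minus TG on HFD. With the clock score as a covariate, counts of members and of other genes were 0 for diet in WT, KO and TG, KO minus WT on ND and KO minus TG on ND. There the sign turned for Asns for diet in KO (0.0941) and in KO minus TG on ND (0.21), for Cpt1a for diet in TG (-0.0483), for Atf4 in KO minus WT on ND (0.21) and for Fgf21 in KO minus TG on ND (0.66). In that fit the 3 called member differences kept their direction, at 2.52, -2.28 and -0.38, without passing. Without single arrays, members called ranged from 0 to 1 for diet in WT, TG minus WT on HFD and KO minus TG on ND, and were 0 throughout for KO minus WT on ND. Other pathway genes ranged from 1 to 2 for diet in WT, 0 to 1 for diet in KO, 5 to 7 for KO minus WT on ND, 0 to 1 for TG minus WT on ND, 3 to 8 for TG minus WT on HFD, 2 to 5 for KO minus TG on ND and 1 to 4 for KO minus TG on HFD. The sign then turned for Asns for diet in KO (-0.13 to 0.0617), diet in TG (-0.46 to 0.96) and TG minus WT on HFD (-0.69 to 0.74), and for Fgf21 in KO minus WT on HFD (-0.74 to 0.44), KO minus TG on ND (-0.26 to 0.14) and diet in KO minus diet in WT (-1.17 to 0.00692). The cause was not tested. Centring moved the median of all genes by at most 0.04. No paired analysis was possible because the labels give no replicate numbers shared between groups. Diet runs with the style of the sample numbers in the labels, so diet and a possible cohort cannot be told apart. Within each diet the KO numbers also form a run apart from those of WT and TG. The KO label and a possible cohort therefore cannot be told apart either. On HFD the TG numbers lie apart from those of WT as well. For TG minus WT on HFD the label and a possible cohort thus cannot be told apart. Dim probe sets, Psat1, Phgdh and Chac1 among them, limit what a lack of difference shows.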
